A study of Homo sapiens with 16 samples.

Results

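The genes described here copy DNA or make its deoxynucleotide precursors: 43 genes, taken by symbol from the annotation, of which all 43 were listed in both tables of the series, among 10799 transcripts for MDA-LM2 against parental cells and 8980 for sgHNRNPC against sgControl cells. They comprised 7 origin-licensing factors, 12 genes of the replicative helicase, and 9 polymerase and primase subunits. The others were 9 clamp, clamp loader and single-strand-binding genes, 2 genes of Okazaki fragment processing and 4 enzymes of deoxynucleotide synthesis. The study paired ribosome profiling, which sequences the ribosome-protected fragments (RPFs) of mRNA, with RNA-seq of the same lysates. Parental cells were MDA-MB-231, a human triple-negative breast cancer line that metastasises poorly, and MDA-LM2 was its derivative selected in animals for lung metastasis. In the second comparison MDA-MB-231 cells carrying dCas9-KRAB, a fusion protein that silences transcription at the site a guide RNA directs it to, received 1 of 2 guides and were selected with puromycin: sgHNRNPC targets HNRNPC, the gene of a nuclear RNA-binding protein, and sgControl is the control. All cells grew in culture, and every line had 2 RPF and 2 RNA libraries described as biological duplicates, 16 in all.

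Before S phase the origin recognition complex, CDC6 and CDT1 load rings of MCM2 to MCM7 onto DNA. CDC45 and the GINS complex then join the ring to form the active helicase, polymerase alpha with primase lays primers, and polymerases delta and epsilon extend them on the sliding clamp PCNA, which the RFC complex loads. RPA coats the single strands, FEN1 and LIG1 trim and seal Okazaki fragments, and ribonucleotide reductase, thymidylate synthase and thymidine kinase supply deoxynucleotides. Many of these genes are transcribed at G1/S under E2F factors, and breast cancer pathology uses several MCM proteins and PCNA as markers of proliferation.

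E2F letters were common in the promoters of these genes. Of the 43 genes, 37 had at least 1 RefSeq promoter window from 250 bases before to 50 bases after the transcript start. The letters TTTCCCGC, TTTGGCGC, TTTCGCGC and TTTGCCGC were searched on both strands, and 18 of 46 windows (39.1%) held at least 1 form, against 3.32% of all 35116 windows. The CCAAT box letters CCAAT, also on both strands, occurred in 60.9% of the windows of these genes and in 34.6% of all windows. The cell cycle homology region letters TTTGAA, which mark many mitotic promoters, occurred in 1 of 46 windows (RRM1), against 15.2% of all windows. The following 30-base windows on GRCh38.p14 show the match, in capitals and read along the gene's strand, for the licensing factor CDC6, 4 MCM subunits, PCNA and LIG1, whose RNA or footprint values are described further on. Where the capitals begin with G, the motif lies on the opposite strand.
CDC6, chr17:40287875-40287904, plus strand: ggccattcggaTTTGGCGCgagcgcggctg
MCM2, chr3:127598402-127598431, plus strand: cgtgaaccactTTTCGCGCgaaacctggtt
MCM3, chr6:52284728-52284757, minus strand: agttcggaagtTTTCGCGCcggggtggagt
MCM6, chr2:135876515-135876544, minus strand: cattggtcaggTTTGGCGCgaaatctccag
MCM7, chr7:100101388-100101417, minus strand: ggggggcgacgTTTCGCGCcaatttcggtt
PCNA, chr20:5126663-5126692, minus strand: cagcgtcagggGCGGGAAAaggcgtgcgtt
LIG1, chr19:48170440-48170469, minus strand: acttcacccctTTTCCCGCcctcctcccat
In CDC6 the motif began 7 bases after the annotated start and in MCM2 2 bases after it. In MCM3, MCM7 and PCNA it began at -4, -9 and -59 relative to the start, and in MCM6 and LIG1 at -90 and -114. These are RefSeq starts. The transcripts measured for MCM3 and PCNA start elsewhere, at chr6:52284881 and chr20:5119958. These matches are letters in a window and were not tested as bound sites.

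The RNA values, whole multiples of 1 step per library, corresponded to 7517953 to 8193031 reads in the parental and MDA-LM2 libraries and to 5141959 to 6164753 in the CRISPRi libraries, if a step is 1 read. The RPF values fell on no such step, so their depth in reads is unknown. Their totals after normalisation were 650736 to 679726 in the first table and 158011 to 167928 in the second, and the 2 tables were normalised separately, so no test runs across them. Over all transcripts the log2 values of duplicates correlated at 0.985 to 0.994 for RNA, at 0.956 and 0.961 for RPFs of parental and MDA-LM2 cells, and at 0.903 and 0.855 for RPFs of sgControl and sgHNRNPC cells. VIM, CD44, EGFR, AXL, MSN and CAV1, which mark this line, all stood at percentile 94.3 or higher of RNA in both tables, and ESR1, PGR, CDH1, PTPRC, PECAM1 and ALB were in neither table. ERBB2 RNA stood at percentile 80.9 of the MDA-LM2 table and 36.8 of the knockdown table and EPCAM at 6.91 and 13.3, while GATA3 (0.556) and PDGFRB (4.84) were listed only in the first. HNRNPC RNA was 2162 and 2146 in the sgControl libraries and 1147 and 1183 in the sgHNRNPC libraries, 54.1% of control. That difference passed the test (limma, log2 change -0.89 ± 0.05 SE, adjusted p = 2.29e-35). HNRNPC RPFs were 73.4 and 111 in sgControl and 54.4 and 67.0 in sgHNRNPC, with no overlap but no call (adjusted p = 0.467).

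In MDA-LM2 cells the RNA of 3 of the 43 replication genes passed the test. GINS4, a subunit of the GINS complex, was higher, and MCM7, a ring subunit, and POLD2, an accessory subunit of polymerase delta, were lower. These 3 genes (7.0%) compare with 16.6% of all 10799 transcripts called in either direction (limma, Benjamini-Hochberg adjusted p under 0.05). The median log2 RNA change was 0.06 over the 43 genes and -0.02 over all transcripts. In such bulk samples fewer cells in S phase and less RNA per cell cannot be told apart. The split of calls rested on the scaling: equal library totals, which moved the median of all transcripts up by 0.17, gave 7 higher and none lower among these genes, and quantile normalisation gave 3 higher and none lower.

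GINS4 RNA was 341 and 332 in the parental libraries and 528 and 524 in the MDA-LM2 libraries, a mean ratio of 1.56 (log2 change 0.64 ± 0.12 SE, adjusted p = 0.0085). Both MDA-LM2 values stood clear of both parental values. MCM7 RNA was 3705 and 3440 in parental and 2521 and 2815 in MDA-LM2 cells (-0.42 ± 0.12, adjusted p = 0.0478). POLD2 RNA was 1387 and 1400 against 1078 and 937 (-0.47 ± 0.12, adjusted p = 0.0307). The groups did not overlap for either gene, but equal totals, quantile normalisation and the adjustment for GC content each ended both calls. With parental replicate 1 or 2 left out no gene of the 43 was called, and with MDA-LM2 replicate 1 or 2 left out 23 and 14 were. The MDA-LM2 duplicates differed more from each other (SD of 0.20 on the log2 scale over these genes, against 0.11 in parental cells).

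Ribosome footprints of 6 of the 43 genes (14.0%) were called between MDA-LM2 and parental cells, a share close to the 12% of the 8393 transcripts tested. ORC6, the smallest subunit of the origin recognition complex, GINS4, PRIM2, the large primase subunit, and FEN1 were higher. MCM7 and POLD2 were lower, as in RNA. The median log2 RPF change was 0.04 over the 43 genes and -0.01 over all transcripts tested, and the values by library are shown in the plot of MDA-LM2 against parental cells.

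**Figure D1:**
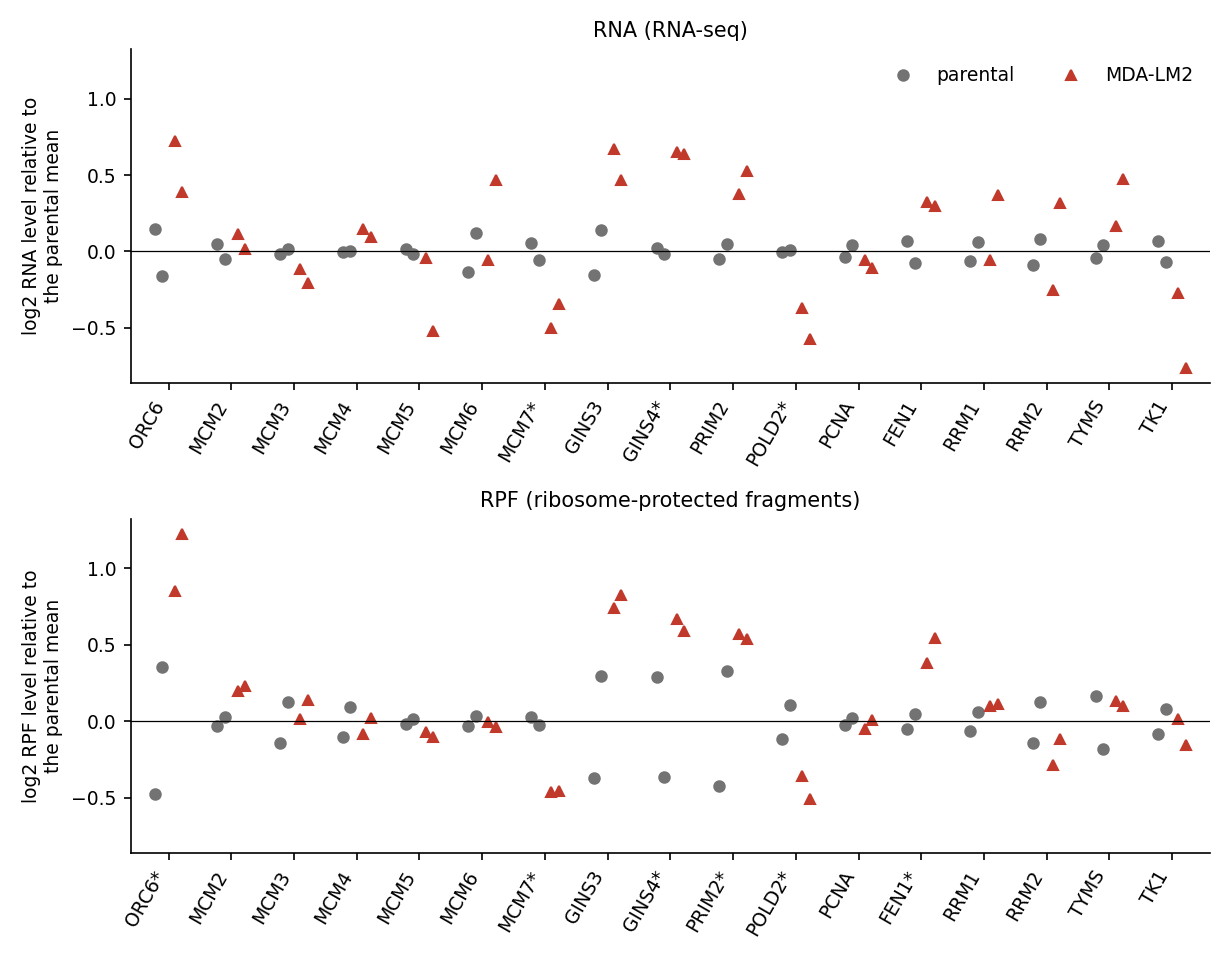
RNA (top) and RPF (bottom) levels of 17 genes in each parental (circles) and MDA-LM2 (triangles) library, as log2 relative to the parental mean of that gene; an asterisk marks an adjusted p under 0.05 (limma). MCM7 and POLD2 lie below the parental libraries and GINS4 above them in both panels, whereas MCM2 to MCM6 and PCNA carry no asterisk in either.

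ORC6 RPFs were 12.5 and 22.2 in the parental libraries and 31.3 and 40.6 in the MDA-LM2 libraries. This was the largest change among these genes, 2.07-fold in the means (log2 change 1.05 ± 0.29 SE, adjusted p = 0.0144), on low values. With 1 library left out the log2 change of ORC6 was 0.66 (without parental replicate 1) to 1.44 (without parental replicate 2). The RNA of ORC6 was 189 and 153 in parental and 283 and 224 in MDA-LM2 cells, also without overlap, and did not pass (adjusted p = 0.0571).

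GINS4 RPFs were 44.6 and 28.3 in parental and 57.9 and 54.7 in MDA-LM2 cells (0.65 ± 0.22, adjusted p = 0.0445), and the log2 change was 0.33 without parental replicate 2. GINS3, another GINS subunit, had 11.3 and 18.0 against 24.5 and 25.9, which did not pass (0.78 ± 0.32, adjusted p = 0.110). PRIM2 RPFs were 59.0 and 99.4 in parental and 118 and 115 in MDA-LM2 cells (0.60 ± 0.17, adjusted p = 0.0181). The parental duplicates of PRIM2 stood far apart, and without parental replicate 1, its lower library, the log2 change was 0.22 and the call was lost, while without parental replicate 2 it was 0.97.

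FEN1, the flap endonuclease, had RPFs of 168 and 180 in parental and 226 and 254 in MDA-LM2 cells (0.46 ± 0.12, adjusted p = 0.00604). Its RNA was 1830 and 1657 against 2183 and 2143, without overlap but short of the threshold (0.31 ± 0.11, adjusted p = 0.0981). LIG1, which seals the nicks that FEN1 leaves, had overlapping values in both measures.

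MCM7 RPFs were 532 and 513 in the parental libraries and 379 and 381 in the MDA-LM2 libraries. The drop to 72.8% of parental passed the test with the smallest adjusted p of these genes (-0.46 ± 0.09, adjusted p = 0.000841) and was called under all 13 alternatives. POLD2 RPFs were 113 and 131 against 95.2 and 85.9 (-0.42 ± 0.14, adjusted p = 0.0486). POLD2 is a borderline call, lost under 7 of 13 alternatives. Leaving out libraries moved the 6 calls: 3 were made without parental replicate 1, 2 without MDA-LM2 replicate 2, 4 without MDA-LM2 replicate 1 and 6, not the same 6, without parental replicate 2. FEN1 and ORC6 were lost without parental replicate 1 or MDA-LM2 replicate 2, GINS4 without parental replicate 2 or either MDA-LM2 library, and POLD2 likewise.

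The other 5 ring subunits passed in neither measure. MCM2 RPFs, for example, were 200 and 208 in parental and 234 and 240 in MDA-LM2 cells (0.21, 95% interval -0.01 to 0.44). MCM6 RPFs were 172 and 180 against 175 and 171 (-0.02, interval -0.26 to 0.22). The remaining 3 had log2 RPF changes of 0.08 for MCM3, -0.03 for MCM4 and -0.08 for MCM5. PCNA RPFs were 246 and 253 against 241 and 251 (-0.02, interval -0.24 to 0.20).

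None of the enzymes of deoxynucleotide synthesis was called. RRM1, the large subunit of ribonucleotide reductase, had RPFs of 335 and 365 in parental and 374 and 378 in MDA-LM2 cells. RRM2, the small subunit whose supply is tied to S phase, had 237 and 285 against 213 and 240 (-0.20, interval -0.43 to 0.04). TYMS, thymidylate synthase, had 215 and 169 against 211 and 207.

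TK1, the S-phase thymidine kinase, was called in neither measure. Its RNA was 3530 and 3216 in parental and 2795 and 1990 in MDA-LM2 cells (-0.51 ± 0.17, adjusted p = 0.0692), whereas its RPFs were 213 and 239 against 228 and 203. RNA did not overlap between the lines and RPFs did. Such separation was frequent. Both MDA-LM2 RNA libraries lay below both parental ones for 12 of the 43 genes and above them for 15. In RPFs the numbers were 8 and 15. The share over all transcripts was not counted. RPA2, a subunit of the single-strand-binding protein, had RNA of 315 and 332 against 310 and 160, and its log2 change was -0.06 when MDA-LM2 replicate 2 was left out. TYMS RNA was 632 and 671 against 732 and 905 (adjusted p = 0.139), and 967 exon bases of its transcript overlap ENOSF1 on the opposite strand. The RNA libraries were made with a stranded kit, but whether the counting used strand is not given in the sources used here, and without it the 2 genes cannot be told apart.

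Translational efficiency (TE), the RPF value over the RNA value, was called for none of the 43 genes between MDA-LM2 and parental cells (limma interaction over 8 libraries, 0.0357% of 8393 transcripts called). None had an unadjusted p under 0.05. RPA2 (0.57, interval -0.14 to 1.29), ORC2 (-0.53, -1.15 to 0.09) and ORC6 (0.49, -0.32 to 1.29) had the largest changes on the log2 scale, and their intervals span 0. With 1 library left out the change of ORC6 ran from -0.06 (without parental replicate 1) to 1.03 (without parental replicate 2) and that of RPA2 from 0.14 (without MDA-LM2 replicate 2) to 1.01 (without MDA-LM2 replicate 1). A logistic regression of RPF against RNA values, the test the study's methods name, called 2.16% of all transcripts and 1 of these genes, TK1. TK1 had a TE of 0.0604 and 0.0743 in parental and 0.0816 and 0.102 in MDA-LM2 cells (log2 change 0.43, adjusted p = 0.00275 by that test, and 0.45 with adjusted p = 0.903 by limma). That regression treats the normalised values as counts and holds no term for the spread between duplicates.

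After HNRNPC knockdown all calls among the replication genes were of lower RNA. The RNA of 7 of the 43 genes (16.3%) was lower in sgHNRNPC than in sgControl cells and that of none was higher, against 6.64% of all 8980 transcripts called lower and 10% called in either direction. They were the ring subunits MCM3, MCM4, MCM5 and MCM6, the licensing factor CDC6 and both genes of Okazaki fragment processing, FEN1 and LIG1. The median log2 RNA change was -0.08 over the 43 genes and -0.02 over all transcripts. In 19 of the 43 genes both sgHNRNPC libraries lay below both sgControl libraries, as they did for 28.9% of all transcripts, and in 8 both lay above, as for 21.7% of all.

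LIG1, DNA ligase I, changed most: its RNA was 239 and 196 in the sgControl libraries and 131 and 125 in the sgHNRNPC libraries. The sgHNRNPC mean was 58.7% of control (log2 change -0.76 ± 0.13 SE, adjusted p = 1.94e-06). FEN1 RNA was 571 and 558 against 464 and 426 (-0.34 ± 0.08, adjusted p = 0.000458). The ranges of sgControl and sgHNRNPC were apart in both genes.

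MCM3 RNA was 1647 and 1564 in sgControl and 1184 and 1155 in sgHNRNPC cells, 72.9% of control (-0.46 ± 0.05, adjusted p = 2.93e-12). MCM4 RNA was 882 and 784 against 655 and 612 (-0.39 ± 0.07, adjusted p = 1.79e-06). MCM5 RNA was 313 and 305 against 245 and 241 (-0.35 ± 0.10, adjusted p = 0.0102). For these 3 subunits both sgHNRNPC libraries lay under both sgControl libraries. MCM6 RNA was 430 and 406 against 362 and 329 (-0.27 ± 0.09, adjusted p = 0.0220).

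The other 2 subunits of the same ring did not pass. MCM7 RNA was 1244 and 1239 in sgControl and 1225 and 1185 in sgHNRNPC cells (-0.04, 95% interval -0.15 to 0.07), and MCM2 RNA was 412 and 347 against 327 and 368 (-0.12, interval -0.30 to 0.05). The interval of MCM7 lies wholly above that of MCM3 (-0.56 to -0.35). CDC6 RNA was 712 and 767 against 647 and 644 (-0.19 ± 0.07, adjusted p = 0.0440), the smallest of the called changes.

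**Figure D2:**
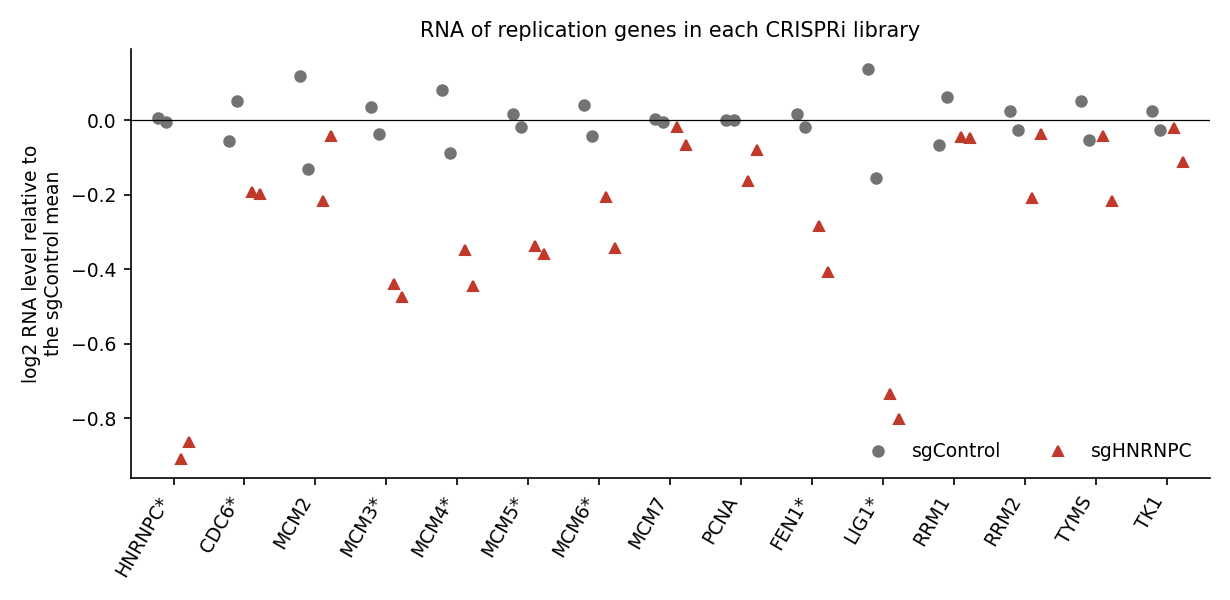
RNA of HNRNPC and 14 replication genes in each sgControl (circles) and sgHNRNPC (triangles) library, as log2 relative to the sgControl mean of that gene; an asterisk marks an adjusted p under 0.05 (limma). MCM3, MCM4, MCM5, MCM6, FEN1 and LIG1 lie below both control libraries, while MCM7, RRM1 and TK1 stay near 0.

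LIG1, MCM3 and MCM4 were called under all 12 alternatives. Without sgHNRNPC replicate 2 these 3 were the only calls. The call of CDC6 was also lost without sgControl replicate 2 or sgHNRNPC replicate 1, with the adjustment for GC content and with quantile normalisation, that of MCM5 without sgControl replicate 1 or sgHNRNPC replicate 1, and that of MCM6 without sgControl replicate 1 and with quantile normalisation. For PCNA (RNA 939.9 and 939.6 against 840.0 and 890.0, adjusted p = 0.222) and RRM2 (921 and 890 against 783 and 883, adjusted p = 0.225) the ranges were apart and the test was not passed. RRM1, TYMS and TK1 overlapped between the lines. The largest positive change, in the GINS subunit GINS2 (84.8 and 103 against 118 and 125, log2 change 0.37), and the changes of POLD1 (-0.35), the catalytic subunit of polymerase delta, and POLE2 (-0.24), a polymerase epsilon subunit, did not pass either (adjusted p of 0.127, 0.111 and 0.361).

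RPFs could be tested for 35 of the 43 genes in the knockdown comparison, since GINS1, GINS2, GINS3, ORC1, ORC2, ORC5, ORC6 and POLA2 did not reach a mean of 10. None of the 35 was called, against 0.0233% of 4283 transcripts, and 5 had an unadjusted p under 0.05. LIG1 RPFs were 18.5 and 21.7 in sgControl and 10.7 and 5.15 in sgHNRNPC cells (-1.31 ± 0.40 SE, adjusted p = 0.406), and RFC5, a clamp loader subunit, had 29.9 and 25.3 against 8.88 and 13.2 (-1.27 ± 0.32, adjusted p = 0.227). MCM4 RPFs were 74.8 and 82.0 against 57.3 and 43.8 (-0.63 ± 0.19, adjusted p = 0.406). In these 3 genes both sgHNRNPC libraries were below both sgControl libraries. Counting genes not tested, RPFs lay so in 10 of the 43 genes, and in 5 both libraries lay above. The share over all transcripts was not counted. POLE2 RPFs were 22.1 and 18.1 against 10.2 and 13.7, also lower without overlap (-0.71, adjusted p = 0.636). RFC4, another clamp loader subunit, had 19.0 and 15.9 against 28.6 and 26.1, higher without overlap (0.62, adjusted p = 0.568). The call depended on single libraries: without sgHNRNPC replicate 1, LIG1 and MCM4 were called, and without sgHNRNPC replicate 2, RFC5. The log2 change of LIG1 was -0.85 without sgHNRNPC replicate 2.

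The ring subunits whose RNA was lower were not called in RPFs, where the signs of their estimates differed. MCM6 RPFs were 39.8 and 46.2 in sgControl and 56.0 and 54.3 in sgHNRNPC cells, higher in both libraries without passing (0.35, interval -0.05 to 0.76). MCM5 RPFs were 38.2 and 51.7 against 39.2 and 48.9 (-0.02, interval -0.46 to 0.42), and MCM3 RPFs were 96.0 and 104 against 99.6 and 72.3 (-0.23, interval -0.59 to 0.13). The intervals of MCM3 and MCM5 hold both 0 and their RNA change, so that these RPF libraries could not separate them.

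**Figure D3:**
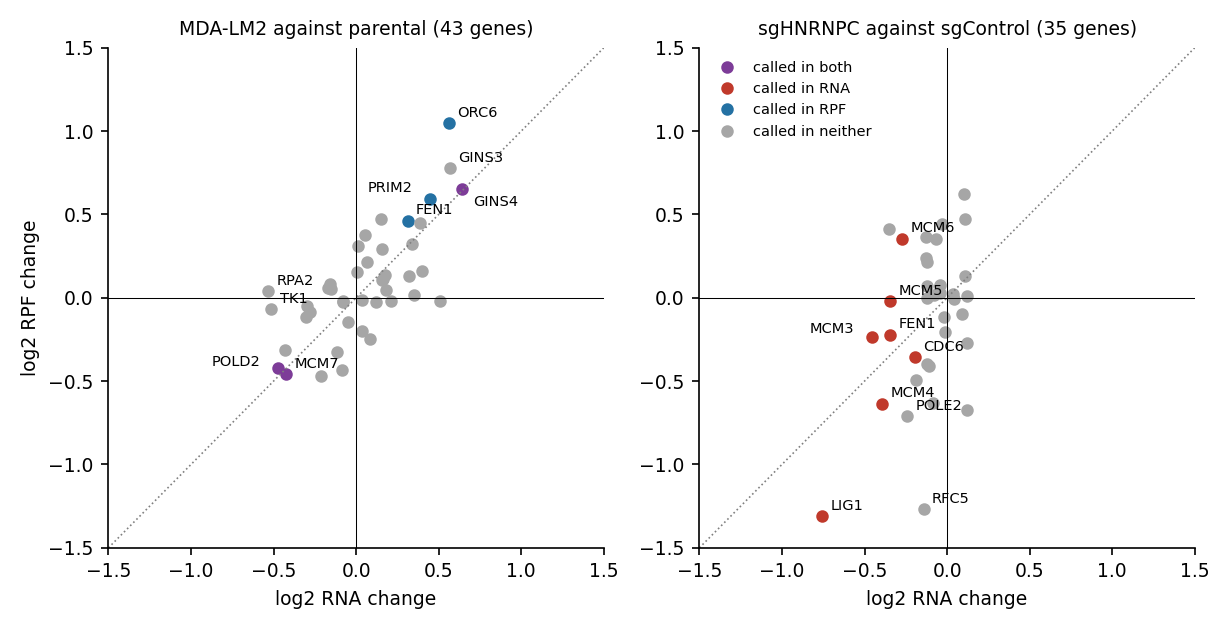
Log2 RPF change against log2 RNA change of the replication genes that could be tested in both measures, for MDA-LM2 against parental cells (left, 43 genes) and sgHNRNPC against sgControl cells (right, 35 genes); colours give the measures in which a gene was called and the dotted line marks equal change. On the left GINS4, MCM7 and POLD2 are called in both measures and ORC6 lies above the line, and on the right all 7 genes called in RNA lie left of 0 while their RPF changes run from -1.31 for LIG1 to 0.35 for MCM6.

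TE was called for no gene in the knockdown, neither among the 35 nor among all 4283 transcripts (0%, limma interaction), and 4 of the 35 had an unadjusted p under 0.05. The logistic regression called none of the 35. RFC5 had a TE of 0.111 and 0.0899 in sgControl and 0.0338 and 0.0559 in sgHNRNPC cells (-1.13 ± 0.30, adjusted p = 0.570). MCM6 had 0.0925 and 0.114 against 0.155 and 0.165 (0.63 ± 0.19, adjusted p = 0.570). Both genes kept their libraries apart, RFC5 downward and MCM6 upward. PRIM1, the small primase subunit (-0.79, interval -2.22 to 0.64), and POLD1 (0.76, interval -0.30 to 1.82) had wide intervals. Without sgHNRNPC replicate 1 the change was 0.08 for PRIM1 and 1.47 for POLD1, and without sgHNRNPC replicate 2 it was -1.67 and 0.06.

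Levels of different genes were compared per kilobase, RNA over the transcript and RPFs over the coding sequence. In parental cells PCNA had the most RPFs per coding kilobase of the 43 genes, 317 ± 7 (SD, n = 2), followed by TK1 (281 ± 23) and MCM7 (242 ± 6). The catalytic subunits POLA1 (10.9 ± 1.0) and POLE (12.5 ± 2.6) had the fewest, and did not differ beyond their duplicates. Within the ring MCM7 stood above all other subunits. MCM3 (131 ± 17) came next, MCM4 (96.6 ± 9.3) and MCM5 (93.7 ± 1.6) were not separated by their duplicates, and MCM2 (75.1 ± 2.1) and MCM6 (71.2 ± 2.3) were lowest.

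The spread of RPFs and RNA within a complex differed between complexes and tables. Each span covers only subunits among the genes described here. The origin recognition complex therefore lacks ORC4, polymerase delta lacks POLD4, and polymerase epsilon lacks POLE3 and POLE4. The ring spanned 3.40-fold in RPFs per coding kilobase and 12.3-fold in RNA per kilobase in parental cells, the origin recognition complex 1.42-fold and 5.08-fold, and polymerase delta 2.62-fold and 14.1-fold. In GINS (2.84-fold in RPFs, 1.89-fold in RNA) and polymerase alpha with primase (4.77-fold and 2.33-fold) the order was the other way. RRM1 and RRM2, which form 1 enzyme, had 147 ± 9 and 193 ± 25 RPFs per coding kilobase in parental cells and 158 and 168 in MDA-LM2 cells. In sgControl cells the ring spanned 2.84-fold in RPFs and 5.63-fold in RNA. RPFs instead spanned more than RNA in polymerase epsilon (5.82-fold and 2.0-fold), RFC (5.57-fold and 2.42-fold) and polymerase alpha with primase (4.90-fold and 4.15-fold). GINS spanned 4.08-fold and 2.89-fold, but GINS1, GINS2 and GINS3 had too few RPFs for testing in that comparison. GINS3, the lowest of them, had RPFs of 4.27 and 1.08 in the sgControl libraries, so the GINS range cannot show a wider spread in RPFs. The RPF range of the origin recognition complex was 2.95-fold in MDA-LM2 cells, where ORC6, a gene of low RPF values, stood highest. In sgControl cells it was 3.03-fold, from ORC1 to ORC6. Before division by coding length (2586 and 759 bases) their RPFs overlapped, at 8.25 and 11.8 for ORC1 and 7.93 and 9.96 for ORC6. ORC1, ORC2, ORC5 and ORC6 had too few RPFs for testing in that comparison, so no conclusion is drawn from the sgControl range.

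**Figure D4:**
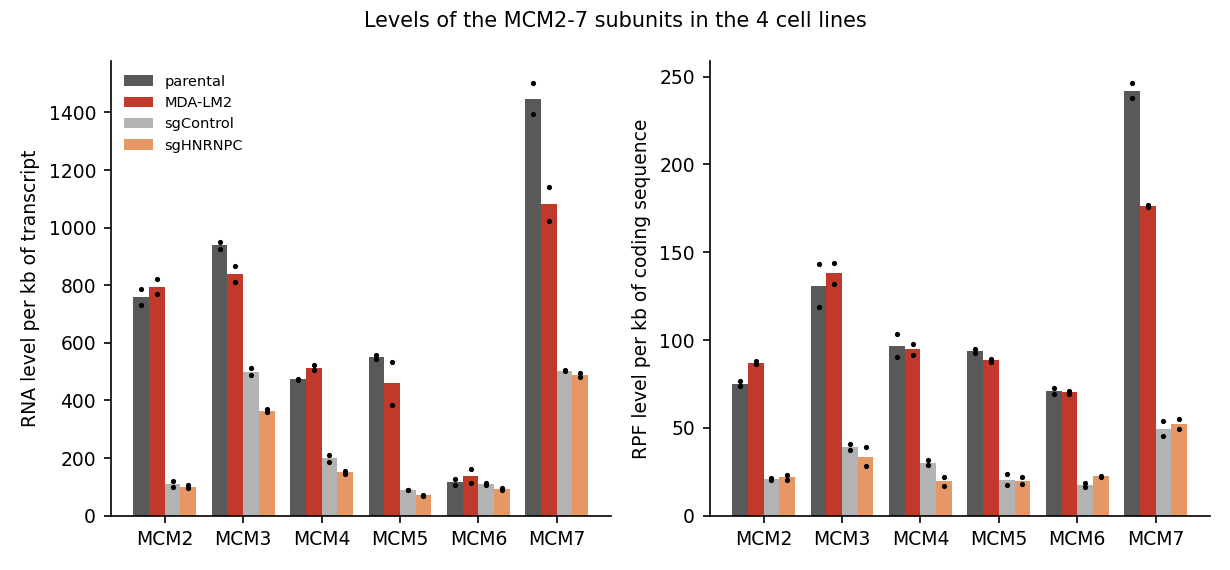
RNA per kilobase of transcript (left) and RPFs per kilobase of coding sequence (right) of the MCM2 to MCM7 subunits; bars are means and points the 2 libraries of each line. The parental and MDA-LM2 values come from 1 table and the CRISPRi values from another with its own normalisation, so only patterns within a table compare. MCM7 has the most RPFs in every line. In parental and MDA-LM2 cells MCM6 lies below MCM2 in both measures, by far more in RNA than in RPFs.

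The RNA order of these genes differed between the tables although parental and sgControl cells are both MDA-MB-231. Per kilobase, MCM2 RNA was 788 and 733 and MCM6 RNA 107 and 128 in the parental libraries. In the sgControl libraries they overlapped, at 120 and 101 for MCM2 and 115 and 108 for MCM6. Per coding kilobase, parental RPFs were 73.6 and 76.6 for MCM2 and 69.5 and 72.8 for MCM6. The sgControl RPFs were 21.5 and 20.1 for MCM2 and 16.1 and 18.8 for MCM6. Across the 43 genes the log2 difference of parental and sgControl RNA followed the GC content of the transcript (Spearman 0.90, Pearson 0.91, and 0.84 and 0.83 over all 8764 transcripts in common with an annotated GC content). The extremes were POLD1 (64.9% GC, log2 difference 3.19) and ORC3 (39.3% GC, -1.20). The RPF difference did so far less (Spearman 0.33 over the 43 genes and 0.07 over all). These points share libraries, depth and base composition, and describe the tables without a test. RNA levels per kilobase, and TE compared between genes, therefore carry that pattern.

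**Figure D5:**
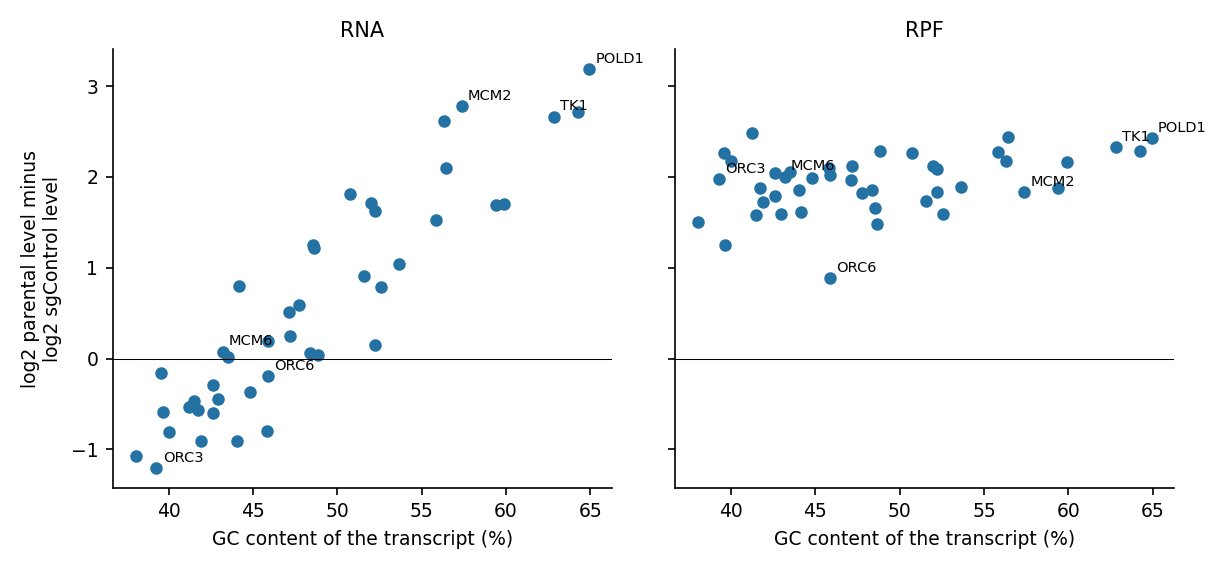
Log2 level in parental cells minus log2 level in sgControl cells against the GC content of the transcript for the 43 replication genes, in RNA (left) and RPFs (right), from group means in separately normalised tables. RNA differences climb from -1.20 at ORC3 to 3.19 at POLD1, while most RPF differences lie close to the general offset between the tables, with ORC6 lowest at 0.88.

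Changes within a comparison followed GC content less closely. In MDA-LM2 against parental cells the Spearman correlation of the change with GC content was -0.45 in RNA, -0.19 in RPFs and 0.38 in TE over the 43 genes, and -0.33, -0.17 and 0.20 over all transcripts tested. In the knockdown it was -0.28 for RNA over the 43 genes and -0.06 over all transcripts. With an adjustment for GC content, GINS4, FEN1 and GINS3 were called higher and ORC1 lower in MDA-LM2 RNA, and 6 of the 7 lower calls of the knockdown were kept. The part of base composition in these results was not tested further.

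Other factors of replication were called in part. Among 31 listed helicase, fork and chromatin factors outside the 43 genes, TICRR, which helps CDC45 to load, was higher in MDA-LM2 RNA (195 ± 11 against 437 ± 22, log2 change 1.16, adjusted p = 0.000836) and RPFs (log2 change 0.90, adjusted p = 0.0363). ASF1B, a histone chaperone, was lower in both (-0.72 and -0.64). RECQL4 was also lower in RNA and MCMBP higher in RPFs, giving 3 calls in each measure (9.68% of 31, against 16.6% of all transcripts in RNA and 12% in RPFs). In the knockdown 4 of 31 were lower in RNA and 2 higher (19.4%, against 10% of all). The lower ones were MCM8 (-0.53), UHRF1 (-0.39), ATAD5 (-0.33), which unloads PCNA, and the maintenance DNA methyltransferase DNMT1 (-0.21), and the higher ones were ORC4 (0.35), an origin recognition complex subunit, and POLD4 (0.49), the smallest subunit of polymerase delta.

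Among other enzymes of nucleotide synthesis 33 were listed in the MDA-LM2 table and 32 in the knockdown table. In MDA-LM2 RNA 2 of 33 were called (6.06%, against 16.6% of all transcripts). The kinase CMPK1 was lower (-0.61) and the purine enzyme ATIC higher (0.56). In RPFs 4 of 32 (12.5%, against 12% of all transcripts) were lower and none higher: CTP synthase CTPS1 (126 ± 6 against 75.8 ± 5.3, log2 change -0.72, adjusted p = 0.000671), SHMT1 (-0.60), CMPK1 (-0.59) and NME2 (-0.38). In knockdown RNA 4 of 32 were called (12.5%, against 10% of all transcripts), 3 higher and 1 lower. The higher ones included IMPDH2 (0.24) and SHMT2 (0.20), and the lower one was ATIC (-0.30). No gene of either list was called in knockdown RPFs or in TE in either comparison (limma), where 0 to 4 per list had an unadjusted p under 0.05.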

How the data were processed

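Ribosome profiling and RNA-seq of the same lysates were analysed for 4 lines in duplicate. The processing notes name cutadapt 2.3, UMI-tools, Bowtie2 2.3.5 and hg38. Per the methods, the authors discarded rRNA and tRNA reads, aligned the others to 1 mRNA isoform per gene, that of longest coding sequence, and removed UMI duplicates. RNA reads were counted directly per transcript and RPFs either so or after CELP debiasing, which smooths local stalling peaks. Which was used here is not given in the sources used here. The deposited signal values are counts per transcript that the authors normalised by median of ratios, separately for RNA and RPF, in 1 table per comparison. Each RNA library's values were whole multiples of 1 step, at least 5 steps each (tolerance 0.01). Transcripts were named with GENCODE 44 (97.9% matched). Members and lists were chosen with earlier results of these data known. Log2(value + 1) was fitted with limma 3.58.1 (trended moderation) over 4 libraries for RNA, over 4 libraries for RPF, keeping transcripts whose RNA and RPF means reached 10, and as an interaction over 8 libraries for TE. Fold changes on this scale understate low genes. Calls had an adjusted p under 0.05 (Benjamini-Hochberg, all transcripts tested). Genes named with values were those called, the 3 largest uncalled changes per measure, MCM2 to MCM7, PCNA and the deoxynucleotide enzymes. Their other measures, and called genes of the other lists, stand beside them. Not every called gene of those lists is reported here. The GC adjustment (loess, span 0.3) was added after the data were seen. The fits were tested on simulated data. Limma p-values rest on 2 samples per group and on a spread moderated across all transcripts tested. They do not measure the spread of those 2 samples alone.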

Additional observations from a re-analysis of the deposited data

How the results depend on the processing

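For MDA-LM2 RNA the 3 calls became 7 with equal totals (all higher) and 9 with the replicate block (5 higher, 4 lower), and 0 to 23 with 1 library left out. For MDA-LM2 RPFs they were 2 to 6 with 1 library left out. For TE in MDA-LM2 cells the 0 calls became 1 with logistic regression (TK1) and stayed 0 under the 14 other alternatives. In knockdown RNA the 7 calls were 3 to 6 with 1 library left out, and in knockdown RPFs the 0 calls became 1 with the replicate block (RFC5) and 0 to 2 with 1 library left out. A group left with 1 library was assumed to vary like the other. Every other count lay within 1.5 times that reported, and no called gene changed sign: of 425 repeats over 34 gene results, 43 lost and 14 gained a call. The reported fits did not pair same-numbered libraries of 2 lines. Their deviations correlated at 0.23 and 0.04 (RNA and RPF, parental with MDA-LM2) and at -0.0038 and 0.03 (sgControl with sgHNRNPC). Whether same-numbered parental and MDA-LM2 RNA libraries shared more than a number was not tested. The edgeR test on recovered reads was not run. RPF duplicates in the knockdown differed by an SD of 0.29 to 0.42 on the log2 scale over these genes.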

Other observations

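Some regulators of the G1/S transition, which set when replication genes are transcribed, were called. Among 28 that were listed, MDA-LM2 RNA was lower for 5 and higher for 1 (21.4%, against 16.6% of all transcripts). The lower ones were MYBL2 (mean and SD of 2 libraries, 1513 ± 134 in parental against 664 ± 32, log2 change -1.18, adjusted p = 0.000538 by limma), the CDK inhibitors CDKN2C (-0.87), CDKN1A (-0.73) and CDKN1B (-0.59), and E2F2 (-0.55), and CCND2 was higher (0.77). In RPFs 4 of 24 (16.7%, against 12% of all) were lower, CDKN2C (-1.27), MYBL2 (-1.08), CDKN1A (-0.90) and CCND3 (-0.50). After HNRNPC knockdown CDKN1A RNA was higher (208 ± 3 in sgControl and 354 ± 14 in sgHNRNPC cells, log2 change 0.77, adjusted p = 3.89e-10), as were CCND2 (0.30) and RBL2 (0.37), and CDK6 was lower (-0.17), 4 of 27 in all (14.8%, against 10% of all transcripts).

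Of 18 mitotic genes 2 (11.1%, against 16.6% and 12% of all transcripts) were called in MDA-LM2 RNA and the same 2 in RPFs, PRC1 higher (0.66 in both) and CDC20 lower (-0.50 and -0.41), and 1, CENPE (-0.19), was lower in knockdown RNA (5.56%, against 10%). In the 3′ UTR, 12 of the 43 replication transcripts (27.9%) held a C with 6 U after it, as did 42.9% of all annotated transcripts of the MDA-LM2 table. The replication transcripts had shorter 3′ UTRs, with a median of 692 bases against 1167.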
